A study of Homo sapiens with 18 samples.

Results

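The vault RNAs VTRNA1-1, VTRNA1-2 and VTRNA1-3 are 3 of the 2462 small RNA features measured in HEK293T, an established line from human embryonic kidney, and in its extracellular vesicles. They were chosen by name, as the 3 genes of the vault RNA 1 locus, and no measured value enters that rule. Wild type (WT), ATG7-/- and ATG12-/- cultures were kept without serum for 24 h, and small RNA was sequenced from vesicles and from cells. This gave 6 groups of 3 libraries, called biological replicates in the labels, with nothing said of separate cultures. Each knockout is a single clone, so a difference between genotypes is a difference between clones as well. ATG7 and ATG12 are needed to attach LC3 and its relatives to membrane lipids, a central step of autophagy. Their mRNAs and the markers of HEK293T cells are not analysed here, so neither the knockouts nor the cell line could be checked from these small RNA libraries.

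Vault RNAs are short transcripts of RNA polymerase III, the enzyme that also makes tRNA, Y RNA and U6. They were named for the vault, a large ribonucleoprotein particle of the cytoplasm built mainly of the major vault protein, although much of the vault RNA of a cell is not bound to it. VTRNA1-1 is known to bind the autophagy receptor p62, which tethers cargo to LC3, and to hold back its activity. VTRNA1-2 and VTRNA1-3 are paralogs that lie beside VTRNA1-1 and whose roles are less well described.

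All 3 genes lie on the plus strand of chromosome 5 in GRCh38, at chr5:140711275-140711373 for VTRNA1-1, chr5:140718925-140719013 for VTRNA1-2 and chr5:140726158-140726246 for VTRNA1-3. The GENCODE 29 annotation places no other gene over them. The gaps between neighbours are 7551 and 7144 bases, and the nearest protein-coding genes are ZMAT2, 4598 bases before VTRNA1-1, and PCDHA1, 59889 bases after VTRNA1-3. The transcripts are 99, 89 and 89 bases long, and their sequences are shown because the results turn on telling the paralogs apart. Capitals mark the middle stretch, which lies between the first 29 bases, identical in all 3, and a run of 16 bases that is also identical.
VTRNA1-1: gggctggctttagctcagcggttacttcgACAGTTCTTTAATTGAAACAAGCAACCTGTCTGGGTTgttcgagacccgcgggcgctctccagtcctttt
VTRNA1-2: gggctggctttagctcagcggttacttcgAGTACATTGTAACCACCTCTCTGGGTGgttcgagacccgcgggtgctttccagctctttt
VTRNA1-3: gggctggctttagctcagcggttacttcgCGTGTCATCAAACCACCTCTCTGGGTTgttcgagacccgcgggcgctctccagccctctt

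In a global alignment VTRNA1-2 and VTRNA1-3 were identical at 87.8% of positions, VTRNA1-1 and VTRNA1-3 at 83.0%, and VTRNA1-1 and VTRNA1-2 at 81.8%. The middle stretch, 37 bases in VTRNA1-1 and 27 in the others, holds most of what separates them. The 3′ end, after the shared run of 16 bases, also differs at a few positions. Every stretch of 35 bases was unique to its gene among the vault RNA 1 genes, VTRNA2-1 and the pseudogene VTRNA3-1P on chromosome X. Of the stretches of 25 bases, 76.0% were unique in VTRNA1-1, 90.8% in VTRNA1-2 and 76.9% in VTRNA1-3. Reads of 50 bases were sequenced, and the length left after trimming and the treatment of reads that match several genes are not given in the sources used here. Fragments from the shared 5′ end cannot be assigned to a paralog, so a count may hold reads of its neighbours.

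Inside the transcripts, the letters GCNNAGNGG, the core of the A box of polymerase III promoters, were found at bases 13 to 21 of all 3 vault RNAs. GTTCGANNC, the core of the B box, was found at bases 67 to 75 of VTRNA1-1 and 57 to 65 of VTRNA1-2 and VTRNA1-3, where it opens the shared run. Both patterns were searched on both strands, were written after the sequences had been seen, and do not overlap. Of 4844 GENCODE transcripts of 80 to 130 bases, 10.5% held the first, which is short and common, and 0.289% the second. The 14 transcripts with the second include the vault RNA 1 genes. They are far fewer than the 622 tRNA genes measured here, a class with A and B boxes. The 0.289% therefore does not measure how rare the B box is among polymerase III genes. The paralogs carry the same letters at both places.

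Values below are normalised reads, the reads of a feature divided by 1 size factor per library, as deposited. One read was worth 1.17 to 1.89 normalised reads in vesicles and 0.477 to 0.824 in cells. Libraries held 1881080 to 3382605 reads assigned to features in vesicles and 1188388 to 1804089 in cells, so the depths of the 2 kinds of sample did not overlap. Each vault RNA had 72 to 314 reads per vesicle library and 189 to 1012 per cell library. Fold changes are on the log2 (normalised reads + 1) scale with their standard error (SE). Tests are limma's, p-values were adjusted by Benjamini and Hochberg's method across every feature that entered the comparison, and a feature was called at an adjusted p under 0.05. A lower level in such samples may come from less RNA per cell or vesicle or from fewer cells or vesicles that carry it, and these cannot be told apart.

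The vault RNAs of ATG7-/- cells were first set against those of WT cells. VTRNA1-1 fell to a level 2.06-fold lower while its neighbour VTRNA1-2 rose 2.28-fold, and VTRNA1-3 passed no test. VTRNA1-1 stood at 451, 668 and 389.9 normalised reads in WT cells and at 293, 191 and 238 in ATG7-/- cells. Every ATG7-/- library was below every WT library. The log2 fold change was -1.04 (SE 0.21, adjusted p = 0.00515).

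VTRNA1-2 stood at 271, 255 and 200.1 normalised reads in WT cells and at 423, 711 and 548 in ATG7-/- cells. Again the groups did not overlap, now with the knockout above. The log2 fold change was 1.19 (SE 0.20, adjusted p = 0.00146). For VTRNA1-3 the values were 359, 377 and 250.4 in WT cells and 311, 456 and 321 in ATG7-/- cells, which overlap (log2 fold change 0.14, SE 0.21, adjusted p = 0.673).

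In this comparison 8.44% of the 853 features tested were called higher and 8.32% lower, and 35.2% had groups that did not overlap. Of all features, 2.81% had a fold change as low as that of VTRNA1-1 or lower, and 97.7% one no higher than that of VTRNA1-2. Both calls held under each of the 17 alternatives run, with adjusted p-values up to 0.0300 for VTRNA1-1 and 0.0163 for VTRNA1-2. Scaling by TMM factors from microRNAs moved the fold changes by more than 1.5 times, to -1.57 for VTRNA1-1 and 0.66 for VTRNA1-2.

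**Figure D1:**
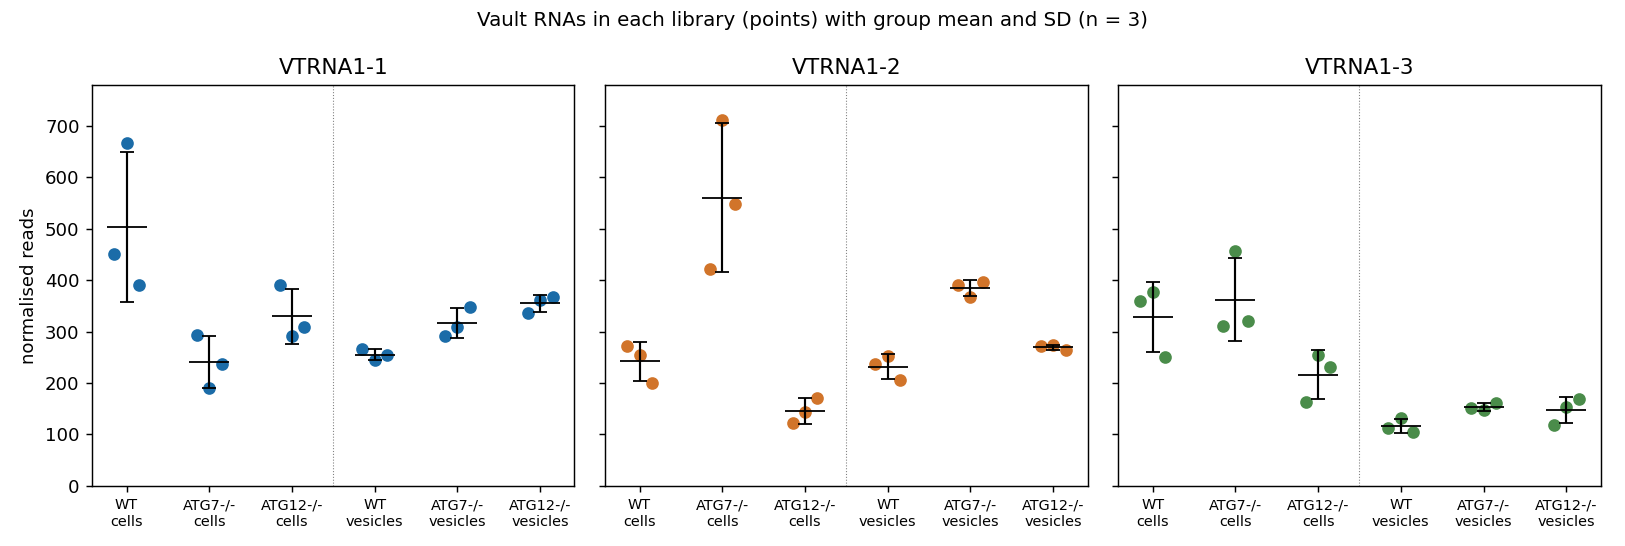
Normalised reads of VTRNA1-1, VTRNA1-2 and VTRNA1-3 on a linear axis from 0, with 1 point per library and the mean and SD of each group (n = 3). In ATG7-/- cells VTRNA1-1 lies at 191 to 293, below WT cells, and VTRNA1-2 at 423 to 711, above them.

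ATG12-/- cells were lower than WT cells in every vault RNA mean. VTRNA1-2 fell by 0.73 on the log2 scale (SE 0.20, adjusted p = 0.0179), and VTRNA1-3 fell by 0.61 (SE 0.21, adjusted p = 0.0486). VTRNA1-1 had a change of -0.58 that was not called (SE 0.21, adjusted p = 0.0552). VTRNA1-2 was at 122, 144 and 171 normalised reads in ATG12-/- cells, all below the WT libraries. VTRNA1-3 was at 163, 254 and 231 and VTRNA1-1 at 389.9, 290.5 and 308, and both overlapped WT cells. For VTRNA1-1 the overlap was a near tie, with the highest ATG12-/- library at 389.889 and the lowest WT library at 389.883. Of the features tested in this comparison, 18.2% were called lower and 7.5% higher, and 48.5% had groups that did not overlap.

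These ATG12-/- calls in cells were less firm than those of ATG7-/- cells. With library totals VTRNA1-2 stood at -0.50 (adjusted p = 0.119) and VTRNA1-3 at -0.38 (adjusted p = 0.246), neither called. The call of VTRNA1-2 was also lost without ATG12-/- cells replicate 1 (-0.61, adjusted p = 0.0713), WT cells replicate 1 (-0.64, adjusted p = 0.0826) or WT cells replicate 2 (-0.69, adjusted p = 0.0653). That of VTRNA1-3 was lost without those same libraries (-0.42, -0.53 and -0.50, adjusted p = 0.187, 0.153 and 0.169) or without ATG12-/- cells replicate 3 (-0.67, adjusted p = 0.0759). VTRNA1-1 was called without WT cells replicate 3 (-0.75, adjusted p = 0.0418).

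The clones were then compared with each other. VTRNA1-2 was 3.78-fold lower in ATG12-/- than in ATG7-/- cells (log2 fold change -1.92, SE 0.20, adjusted p = 4.51e-05), with the highest ATG12-/- library at 171 and the lowest ATG7-/- library at 423. Only 0.352% of the 853 features had a fold change this low. VTRNA1-3 was lower by 0.75 (-0.75, SE 0.21, adjusted p = 0.0252), and its groups, at 163 to 254 and 311 to 456, did not overlap. VTRNA1-1 was not called (0.46, SE 0.21, adjusted p = 0.139). In this comparison 14.4% of features were called lower, 5.63% were called higher and 34.2% had groups that did not overlap. The call of VTRNA1-3 was lost without ATG12-/- cells replicate 1 (-0.56, adjusted p = 0.114) or ATG7-/- cells replicate 2 (-0.57, adjusted p = 0.0920), and with library totals (-0.61, adjusted p = 0.0693) or TMM factors from microRNAs (-0.47, adjusted p = 0.163).

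The share of each paralog among the vault RNA reads of its own library does not depend on how libraries are scaled. VTRNA1-1 was the leading vault RNA in WT cells and VTRNA1-2 in ATG7-/- cells. VTRNA1-1 made up 41.7%, 51.4% and 46.4% of these reads in WT cells and 28.6%, 14.1% and 21.5% in ATG7-/- cells. VTRNA1-2 made up 25.1%, 19.6% and 23.8% in WT cells and 41.2%, 52.4% and 49.5% in ATG7-/- cells. The differences were -25.1 and 24.8 percentage points, each with groups that did not overlap.

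VTRNA1-3 kept a near-constant share in cells, 30.7% ± 2.22 in WT, 30.9% ± 2.39 in ATG7-/- and 31.2% ± 6.48 in ATG12-/- (SD, n = 3 each). ATG12-/- cells also had shares near those of WT cells for VTRNA1-1 (47.8% ± 8.70 against 46.5% ± 4.83) and VTRNA1-2 (21.0% ± 3.04 against 22.9% ± 2.85). The differences of 1.31 and -1.83 points were within the spread between replicates (exact permutation test, two-sided, p = 0.8 and p = 0.6). With 3 libraries a side the p cannot go below 0.1, a value that every share with groups that did not overlap reached. After adjustment over the 27 share comparisons it became 0.169, so no share difference passed the threshold.

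**Figure D2:**
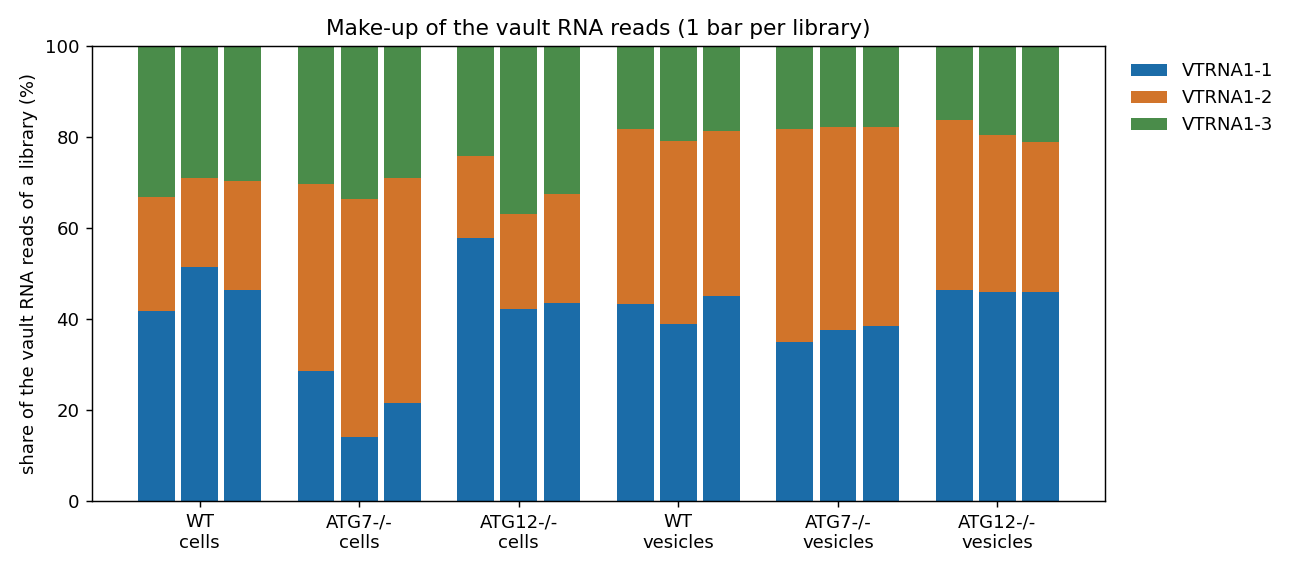
Percent of the reads of the 3 vault RNAs that each paralog took, with 1 stacked bar per library and 3 libraries per group. VTRNA1-2 takes 41.2% to 52.4% of the bar in ATG7-/- cells and 19.6% to 25.1% in WT cells, and VTRNA1-3 takes 16.3% to 21.2% in vesicles.

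Levels were also taken per base of transcript, as normalised reads per base (mean ± SD, n = 3 each). In WT cells the order was VTRNA1-1 (5.08 ± 1.47), VTRNA1-3 (3.69 ± 0.767) and VTRNA1-2 (2.72 ± 0.420). In ATG7-/- cells the order was VTRNA1-2 (6.30 ± 1.62), VTRNA1-3 (4.07 ± 0.914) and VTRNA1-1 (2.43 ± 0.518). Neighbours in these orders lay within their summed SD, except at the last step in ATG7-/- cells. The paralogs are measured in the same libraries, however, and each order held in every library of its group. In WT vesicles VTRNA1-2 and VTRNA1-1 were level (2.61 ± 0.270 and 2.57 ± 0.108) and VTRNA1-3 stood lower (1.31 ± 0.152). The sum of all 3 vault RNAs was 1074 ± 230 normalised reads in WT cells and 1163 ± 173 in ATG7-/- cells, a small difference next to that of either paralog. It was 691 ± 18.2 in ATG12-/- cells.

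Vesicles of the knockouts were compared with WT vesicles. As deposited, every vault RNA mean was higher in both knockouts, and 1 call was made in each, but with library totals VTRNA1-1 in ATG7-/- vesicles (-0.07) and VTRNA1-2 (-0.13) and VTRNA1-3 (-0.03) in ATG12-/- vesicles stood below WT, uncalled. VTRNA1-2 stood at 237, 253 and 206 normalised reads in WT vesicles, at 390.3, 367 and 397 in ATG7-/- vesicles and at 272, 273 and 264 in ATG12-/- vesicles. It rose in ATG7-/- vesicles by 0.73 (SE 0.13, adjusted p = 0.000255). In ATG12-/- vesicles its libraries all lay above WT, but the change of 0.22 was not called (SE 0.13, adjusted p = 0.190).

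VTRNA1-1 stood at 266.0, 245 and 254 normalised reads in WT vesicles, at 291, 308 and 349 in ATG7-/- vesicles and at 336, 361 and 368 in ATG12-/- vesicles. It rose in ATG12-/- vesicles by 0.48 (SE 0.13, adjusted p = 0.00836), and the change of 0.31 in ATG7-/- vesicles was not called (SE 0.13, adjusted p = 0.0514). VTRNA1-3, the scarcest of the vault RNAs in vesicles, stood at 113, 131 and 105 in WT, 152, 147 and 162 in ATG7-/- and 119, 154 and 169.7 in ATG12-/- vesicles. Neither change was called (0.40, SE 0.17, adjusted p = 0.0532, and 0.33, SE 0.17, adjusted p = 0.137). Of the 850 features tested, 33.5% were called higher and 28.9% lower in ATG7-/- vesicles, and 22.6% higher and 21.1% lower in ATG12-/- vesicles, so 1 of 3 vault RNAs called is near the background. Groups did not overlap for 68% and 52.7% of features, in that order.

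The called rises in vesicles held under some scalings and not under others. VTRNA1-2 in ATG7-/- vesicles stayed called with TMM (0.61), edgeR (0.60) and DESeq2 (0.65), and so did VTRNA1-1 in ATG12-/- vesicles (0.49, 0.48 and 0.42). With library totals the change of VTRNA1-2 in ATG7-/- vesicles was 0.36 (adjusted p = 0.0591) and that of VTRNA1-1 in ATG12-/- vesicles 0.12 (adjusted p = 0.535), and with TMM factors from microRNAs they were 0.36 (adjusted p = 0.105) and 0.10 (adjusted p = 0.670). Per 100000 reads assigned to features, VTRNA1-1 took 8.78 ± 0.428 reads in WT, 8.43 ± 1.31 in ATG7-/- and 9.54 ± 0.316 in ATG12-/- vesicles (SD, n = 3 each). Without WT vesicles replicate 1 VTRNA1-1 was called in ATG7-/- vesicles (0.34, adjusted p = 0.0317). VTRNA1-3 was called there without WT vesicles replicate 2 (0.49, adjusted p = 0.0381), and in ATG12-/- vesicles without their replicate 1 (0.48, adjusted p = 0.0434).

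Between the clones, VTRNA1-2 was lower in ATG12-/- than in ATG7-/- vesicles by 0.51 (-0.51, SE 0.13, adjusted p = 0.00547), with no overlap between 264 to 273 and 367 to 397. This call held under all 17 alternatives, at -0.54 to -0.38. VTRNA1-1 (0.17, SE 0.13, adjusted p = 0.299) and VTRNA1-3 (-0.07, SE 0.17, adjusted p = 0.763) were not called. In this comparison 23.3% of features were called lower and 26.6% higher, and 58.7% had groups that did not overlap. The share of VTRNA1-2 in vesicles was 45.1% ± 1.61 in ATG7-/-, 38.4% ± 1.90 in WT and 35.0% ± 2.24 in ATG12-/- vesicles (SD, n = 3 each).

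**Figure D3:**
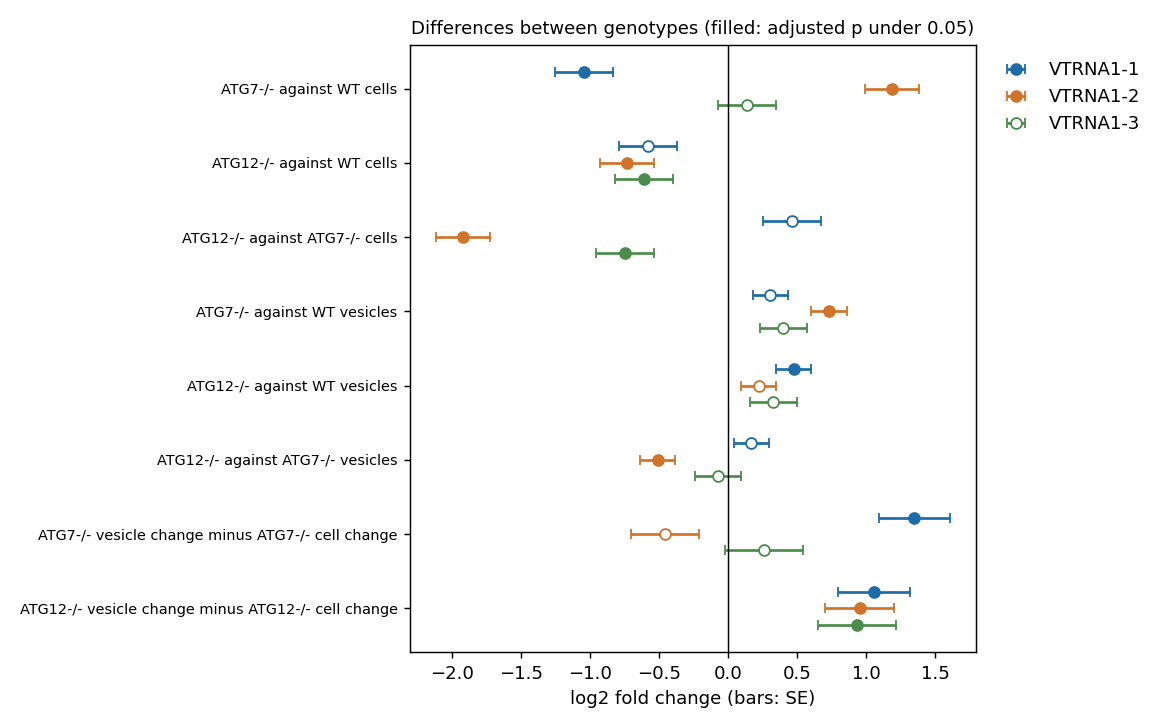
Log2 fold changes of the 3 vault RNAs with their SE for each comparison of genotypes in cells and in vesicles, and for the vesicle change minus the cell change of each clone. Filled points passed an adjusted p under 0.05. VTRNA1-1 and VTRNA1-2 lie on opposite sides of 0 in ATG7-/- against WT cells, at -1.04 and 1.19.

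Vesicles were also set against the cells of their own genotype. VTRNA1-3 was lower in vesicles in all 3 genotypes, by 1.47 on the log2 scale in WT (-1.47, SE 0.20, adjusted p = 6.75e-07), 1.21 in ATG7-/- (-1.21, SE 0.20, adjusted p = 8.45e-06) and 0.54 in ATG12-/- cultures (-0.54, SE 0.20, adjusted p = 0.0180). VTRNA1-1 was lower in WT vesicles (-0.94, SE 0.18, adjusted p = 7.29e-05), higher in ATG7-/- vesicles (0.41, SE 0.18, adjusted p = 0.0439) and not called in ATG12-/- vesicles (0.12, SE 0.18, adjusted p = 0.563). VTRNA1-2 was not called in WT (-0.06, SE 0.18, adjusted p = 0.776), lower in ATG7-/- vesicles (-0.51, SE 0.18, adjusted p = 0.0107) and higher in ATG12-/- vesicles (0.90, SE 0.18, adjusted p = 7.25e-05). Of the 905 features tested, 42.9%, 42.8% and 41.1% were called lower in vesicles and 38.9%, 40% and 39.2% higher, in WT, ATG7-/- and ATG12-/- cultures. Among the calls of vault RNAs, vesicles and cells overlapped for VTRNA1-1 in ATG7-/- cultures, at 291 to 349 and 191 to 293, and for VTRNA1-3 in ATG12-/- cultures, at 119 to 169.7 and 163 to 254. The other calls had groups that did not overlap, as had 83.8%, 84.9% and 85% of all features in WT, ATG7-/- and ATG12-/- cultures.

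The direction of this comparison depended on the scaling. With library totals the median over features shifted by -1.45 in WT, -1.92 in ATG7-/- and -2.07 in ATG12-/- cultures, and every vault RNA stood lower in vesicles than in cells, between -3.19 and -1.20. VTRNA1-1 in ATG7-/- and ATG12-/- cultures (-1.57 and -1.98) and VTRNA1-2 in ATG12-/- cultures (-1.20) thereby changed sign. Per 100000 reads the vault RNAs together took 106 ± 23.8 reads in WT cells and 20.8 ± 1.40 in WT vesicles, 122 ± 21.0 and 22.7 ± 2.71 in ATG7-/- cultures, and 79.9 ± 2.81 and 20.8 ± 0.709 in ATG12-/- cultures (SD, n = 3 each). Per 100000 reads the sums of vesicles were within their spread of each other, but on the deposited scale they were 603 ± 34.1 normalised reads in WT, 854 ± 46.1 in ATG7-/- and 772 ± 39.8 in ATG12-/- vesicles.

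Within the vault RNA reads, the direction between vesicles and cells needs no scaling. VTRNA1-3 took a smaller share in vesicles than in cells, by 11.4 points in WT (-11.4), 13.0 in ATG7-/- (-13.0) and 12.2 in ATG12-/- cultures (-12.2), with no overlap in any genotype. VTRNA1-2 took a larger share in vesicles by 15.5 points in WT and 14.0 in ATG12-/- cultures, and VTRNA1-1 by 15.6 points in ATG7-/- cultures. Among genotypes the mean share of VTRNA1-1 ranged from 37.0% to 46.0% in vesicles and from 21.4% to 47.8% in cells, that of VTRNA1-2 from 35.0% to 45.1% and from 21.0% to 47.7%, and that of VTRNA1-3 from 17.98% to 19.26% and from 30.7% to 31.2%. These ranges were not compared by a test.

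The vesicle and cell calls that hinged on single libraries were the smaller ones. The call of VTRNA1-1 in ATG7-/- cultures was lost without ATG7-/- cells replicate 2 (0.26, adjusted p = 0.229) or 3 (0.41, adjusted p = 0.0730) and without ATG7-/- vesicles replicate 2 (0.43, adjusted p = 0.0672) or 3 (0.34, adjusted p = 0.136). That of VTRNA1-2 was lost without ATG7-/- cells replicate 2 (-0.32, adjusted p = 0.0982). That of VTRNA1-3 in ATG12-/- cultures was lost without ATG12-/- vesicles replicate 1 (-0.39, adjusted p = 0.105) or ATG12-/- cells replicate 2 (-0.41, adjusted p = 0.0978) or 3 (-0.48, adjusted p = 0.0630).

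**Figure D4:**
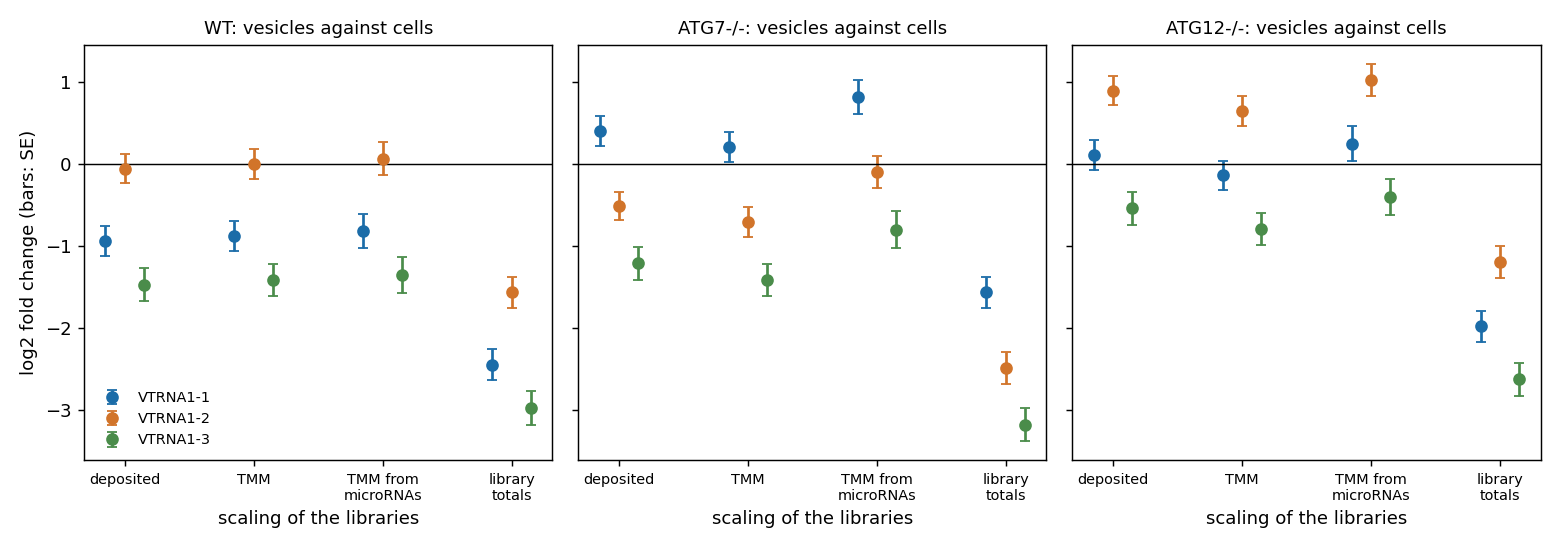
Log2 fold change of vesicles against cells of the same genotype with its SE, for the deposited scaling, TMM, TMM from microRNAs and library totals, with 1 panel per genotype. VTRNA1-3 is below 0 in every panel and scaling, and with library totals all 3 vault RNAs lie between -3.19 and -1.20.

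Whether a vault RNA changed differently in vesicles and in cells was tested as the vesicle change minus the cell change. For VTRNA1-1 the difference was 1.35 in ATG7-/- (SE 0.26, adjusted p = 0.000199) and 1.06 in ATG12-/- cultures (SE 0.26, adjusted p = 0.00516). The fall of VTRNA1-1 in ATG7-/- cells therefore had no counterpart of that size in their vesicles. In ATG7-/- cultures the differences of VTRNA1-2 (-0.46, SE 0.25, adjusted p = 0.127) and VTRNA1-3 (0.26, SE 0.28, adjusted p = 0.451) were not called, and VTRNA1-2 stood higher than WT in both vesicles and cells. In ATG12-/- cultures the differences were 0.95 for VTRNA1-2 (SE 0.25, adjusted p = 0.00757) and 0.93 for VTRNA1-3 (SE 0.28, adjusted p = 0.0188). All 3 vault RNAs were called higher there, against 14.4% of all features (12% lower), and 1 of 3 was in ATG7-/- cultures, against 26.3% (28.7% lower). Among the other short polymerase III RNAs listed below, 3 of 5 were called higher and 0 lower in ATG12-/- cultures. Their median there was 0.950, against 0.953 for the vault RNAs, so higher calls were not limited to vault RNAs. In ATG7-/- cultures 3 of 5 were higher and 1 lower (median 0.854). Of 489 tRNA genes tested, 228 were higher and 17 lower in ATG7-/- cultures, and 78 and 25 in ATG12-/- cultures. No test compared these lists.

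With library totals the VTRNA1-1 difference in ATG7-/- cultures was 0.89 and still called (adjusted p = 0.00900), while the 3 calls of ATG12-/- cultures were lost (0.47, 0.37 and 0.35 for VTRNA1-1, VTRNA1-2 and VTRNA1-3). TMM and edgeR ended those of VTRNA1-2 (0.64 with both) and VTRNA1-3 (0.62 and 0.61). VTRNA1-2 in ATG7-/- cultures was called with library totals (-0.92, adjusted p = 0.00774), TMM (-0.72, adjusted p = 0.0250) and edgeR (-0.75, adjusted p = 0.0126), each over 1.5 times the value above. The call of VTRNA1-3 in ATG12-/- cultures also went without WT vesicles replicate 3 (0.86, adjusted p = 0.0513), ATG12-/- vesicles replicate 3 (0.83, adjusted p = 0.0558), ATG12-/- cells replicate 1 (0.74, adjusted p = 0.0608) or WT cells replicate 2 (0.82, adjusted p = 0.0576), and VTRNA1-2 in ATG7-/- cultures was called without ATG7-/- cells replicate 1 (-0.64, adjusted p = 0.0267).

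These scalings move all features together, and the vault RNAs with them. The share of calls that were higher was 50.3% in ATG7-/- cells, 62.2% after scaling to library totals and 3.21% after TMM on the microRNAs, which shifted the median of the features by -0.53 there. It was 29.2% in ATG12-/- cells against 62.7% and 5.70%, 28.1% between the clones in cells against 53.1% and 80.8%, 53.7% in ATG7-/- vesicles against 31.8% and 28.0%, and 51.8% in ATG12-/- vesicles against 22.2% and 15.7%. With library totals it fell from 47.6%, 48.3% and 48.8% to 19.4%, 17.7% and 14.3% for vesicles against cells of WT, ATG7-/- and ATG12-/- cultures, and from 47.8% and 54.4% to 17.9% and 6.29% for the vesicle minus cell differences of ATG7-/- and ATG12-/- cultures. The opposite signs of VTRNA1-1 and VTRNA1-2 in ATG7-/- cells stood under every scaling run.

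Among the other short RNAs of polymerase III, the table held RNY1, RNY3, RNY4 and RNY5, the Y RNAs bound by the Ro protein, and U6, the catalytic snRNA of the spliceosome. In ATG7-/- and in ATG12-/- cells none of these 5 was called by limma against WT, with fold changes of 0.11 to 0.41 and -0.53 to 0.32, while 2 of 3 vault RNAs were called in each, 1 higher and 1 lower in ATG7-/- cells (8.44% and 8.32% of all features) and both lower in ATG12-/- cells (18.2%). In ATG12-/- cells library totals, TMM and edgeR called 0 of 3 vault RNAs, and VTRNA1-2 came nearest to the threshold with TMM (-0.58, adjusted p = 0.0569). Only RNY4 in ATG7-/- and RNY5 in ATG12-/- cells had an unadjusted p under 0.05. The count of the other 5 depended on the setting too, since library totals and DESeq2 called 2 higher in each clone, edgeR and TMM called 0 in ATG7-/- and 1 in ATG12-/- cells, and TMM factors from microRNAs called 1 lower in each and moved the ATG7-/- median from 0.24 to -0.29. In vesicles 4 of 5 were called higher in ATG7-/- and 3 of 5 in ATG12-/-, with 1 lower in each (with library totals 3 higher in each, and 1 and 2 lower), and the medians were 1.03 and 1.18 against 0.40 and 0.33 for the vault RNAs and 0.11 and 0.05 for all features. The 622 tRNA genes, which share internal A and B boxes with vault RNA genes, had medians of -0.17 in ATG7-/- cells (457 tested, 29 higher, 55 lower) and -0.06 in ATG12-/- cells (47 higher, 56 lower). In vesicles the tRNA medians were 0.47 in ATG7-/- (467 tested, 241 higher, 6 lower) and 0.15 in ATG12-/- (133 higher, 40 lower), the first above and the second below the vault RNA median. These lists and the vault RNAs share their libraries, and no test compared them.

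VTRNA2-1, a separate gene on chromosome 5 also known as nc886, was close to the limit of detection. It had 0 reads in WT and ATG7-/- cells and 2 reads in ATG12-/- cells, all in replicate 2, over 3 libraries each. WT and ATG7-/- vesicles had 2 reads each in all and ATG12-/- vesicles 8. VTRNA2-1 was thus at most 5 reads per library, where each vault RNA 1 gene had at least 72. It was below the minimum for testing.

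Over the 18 libraries, VTRNA1-3 varied most like tRNA-Leu-TAA-1-1 (Pearson's r = 0.922), tRNA-Ser-GCT-4-2 (r = 0.914) and tRNA-Ser-GCT-2-1 (r = 0.907), each lower in vesicles than in cells. The features nearest to VTRNA1-1 were tRNA-Leu-CAG-2-1 (r = 0.678), tRNA-Val-TAC-3-1 (r = 0.669) and tRNA-Pro-AGG-2-5 (r = 0.665), and those nearest to VTRNA1-2 were miR-425-5p (r = 0.733), miR-23a-3p (r = 0.678) and miR-149-5p (r = 0.658). miR-23a-3p averaged 63.1 normalised reads in WT and 113 in ATG7-/- cells. Among the paralogs, r was -0.39 for VTRNA1-1 and VTRNA1-2, 0.16 for VTRNA1-1 and VTRNA1-3, and 0.34 for VTRNA1-2 and VTRNA1-3 over all 18 libraries. Within the 9 vesicle libraries these were 0.41, 0.70 and 0.68, and within the 9 cell libraries -0.51, -0.14 and 0.81, so the pairs with VTRNA1-1 changed sign between vesicles and cells. These correlations are descriptions over libraries that fall into vesicles and cells and share their size factors, and copies of a tRNA can share reads.

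Some microRNAs known from blood and liver differed with genotype in the vesicles. The 8 listed in the table summed to 90.5 to 136 normalised reads in WT vesicles, 182 to 264 in ATG7-/- and 250.6 to 329.5 in ATG12-/- vesicles, and to 1.27 to 11.4 in cells. Of these 8, 5 were below the minimum for testing. miR-486-5p and miR-150-5p were called higher in both knockouts, 2 of the 3 tested against 33.5% of all features in ATG7-/- and 22.6% in ATG12-/- vesicles, and miR-223-3p was not called (adjusted p = 0.926 and 0.298). The 5 below the minimum were miR-144-3p, miR-144-5p, miR-142-3p, miR-142-5p and miR-122-5p. In any library they reached at most 1.89, 3.98, 2.65, 14.0 and 9.28 normalised reads, in that order. The highest vesicle values of miR-486-5p and miR-150-5p were 193 and 105, and miR-451a is not analysed here. What part RNA of such origin has in the vault RNA values of vesicles was not tested.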

How the data were processed

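Small RNA of 18 samples was sequenced after a SMARTer library preparation with 12 PCR cycles and 50 bp reads, per the labels' protocols. The authors deposited 1 table of 2462 features whose values are a signal, the reads divided by 1 size factor per library. All values (100%) were whole multiples of 1 step per library within a relative tolerance of 1e-06, so reads were recovered. The submitters' processing notes name cutadapt 2.3, Bowtie2 2.3, bedtools and DESeq2, with GRCh38 and hg38. Their order, the annotation, any filter and the treatment of reads that match several genes are not given in the sources used here.

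The deposited values were tested as log2 (value + 1) with limma 3.58.1 (trended variance, R 4.3.3), keeping features at 10 or more in at least 3 libraries of the fit. Genotypes were compared within the 9 libraries of vesicles and, apart from them, within the 9 libraries of cells, and vesicles were compared with cells in a fit of all 18. Both knockouts are set against the same WT libraries, so their changes are not independent. P-values measure only the spread between these samples, which may be technical. Shares of vault RNA reads were compared with an exact two-sided permutation test (scipy 1.17.1), and intervals or spreads of reads cover counting and replicate error only, since PCR copies were not marked. Alternatives were other scalings (TMM, TMM from microRNAs, library totals), pseudocounts of 0.5 and 10, a minimum of 50 or none, edgeR 4.0.16 and DESeq2 1.42.0 on the recovered reads, 1 fit over all libraries, a replicate block, and leaving out each library in turn. The fitting code was tested on simulated data.

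Sequences and positions come from GENCODE 29 on GRCh38. The vault RNA 1 genes, VTRNA2-1, the other polymerase III RNAs, the tRNA genes, the blood and liver microRNAs, and, for each vault RNA, the 3 features of highest Pearson's r over the 18 libraries are named. The members and lists were chosen with earlier results of these data known.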

Additional observations from a re-analysis of the deposited data

Results flagged for a closer look

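The ATG12-/- and ATG7-/- clones, both lacking a gene of the same conjugation pathway, differed from each other by the test of the difference itself in 3 vault RNA results. VTRNA1-2 differed by -0.51 in vesicles and by -1.92 in cells (log2, ATG12-/- against ATG7-/-), and VTRNA1-3 differed by -0.75 in cells. Between the clones, 23.3% of all features were called lower and 26.6% higher in vesicles, so a call there was common. In cells 14.4% were called lower and 5.63% higher.

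The change from WT differed between vesicles and cells by an interaction term in 4 results. The vesicle change minus the cell change of VTRNA1-1 was 1.35 in ATG7-/- cultures. In ATG12-/- cultures it was 1.06 for VTRNA1-1, 0.95 for VTRNA1-2 and 0.93 for VTRNA1-3. Of all features, 26.3% were called higher and 28.7% lower by this term in ATG7-/- cultures, so a call there was common. In ATG12-/- cultures 14.4% were called higher and 12% lower. Of the other short polymerase III RNAs, 3 of 5 were called higher in each clone, with 1 lower in ATG7-/- cultures.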

How the results depend on the processing

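Of 33 fold changes tested, 13 kept their side of the threshold in every alternative. Of these, 9 also kept their direction, among them VTRNA1-1 and VTRNA1-2 in ATG7-/- against WT cells, and 4 that were not called changed sign. No share difference could pass the threshold in this design, and 7 of the 27 changed sign in some alternative, all with groups that overlap. Other changes follow, as log2 values. Library totals, TMM and TMM from microRNAs each rescale every feature of a library by 1 factor, by construction. Beyond that, the cause of the changes was not tested. With library totals, 3 vesicle-against-cell values reversed, VTRNA1-1 in ATG7-/- (-1.57) and ATG12-/- cultures (-1.98) and VTRNA1-2 in ATG12-/- cultures (-1.20), and VTRNA1-2 in WT became called (-1.57). Library totals also ended the calls of VTRNA1-2 in ATG7-/- vesicles (0.36), VTRNA1-1 in ATG12-/- vesicles (0.12), VTRNA1-2 (-0.50) and VTRNA1-3 (-0.38) in ATG12-/- cells, VTRNA1-3 between the clones in cells (-0.61) and the ATG12-/- vesicle minus cell differences of VTRNA1-1 (0.47), VTRNA1-2 (0.37) and VTRNA1-3 (0.35), and brought that of VTRNA1-2 in ATG7-/- cultures past the threshold (-0.92). TMM ended VTRNA1-2 (-0.58) and VTRNA1-3 (-0.46) in ATG12-/- cells, VTRNA1-1 in ATG7-/- vesicles against cells (0.21) and the ATG12-/- differences of VTRNA1-2 (0.64) and VTRNA1-3 (0.62), and brought the ATG7-/- difference of VTRNA1-2 past the threshold (-0.72). edgeR on the recovered reads did the same for these 6 results, at -0.58, -0.45, 0.20, 0.64, 0.61 and -0.75. TMM from microRNAs ended VTRNA1-2 in ATG7-/- vesicles (0.36), VTRNA1-1 in ATG12-/- vesicles (0.10), VTRNA1-3 between the clones in cells (-0.47), and vesicles against cells for VTRNA1-2 in ATG7-/- (-0.10) and VTRNA1-3 in ATG12-/- cultures (-0.40), and it added VTRNA1-1 in ATG12-/- cells against WT (-0.84) and ATG7-/- cells (0.74). A minimum of 50 added VTRNA1-1 (0.31) and VTRNA1-3 (0.40) in ATG7-/- vesicles and VTRNA1-1 in ATG12-/- cells (-0.58), which 1 fit over all 18 libraries also added (-0.58). No filter ended VTRNA1-3 in ATG12-/- cells (-0.61) and VTRNA1-1 in ATG7-/- vesicles against cells (0.41), and DESeq2 ended VTRNA1-3 in ATG12-/- cells (-0.46).

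The replicate block ended 1 call, VTRNA1-1 in ATG7-/- vesicles against cells (0.41, limma adjusted p = 0.0521). Whether samples of the same number were prepared together is not given in the sources used here, and these values do not settle it. No comparison had all 3 same-number correlations over 0.1. In ATG12-/- against WT vesicles they were 0.14, 0.09 and 0.09, each above the largest correlation with another number (-0.05, 0.03 and -0.03).

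Leaving out 1 library at a time moved calls within these ranges. In ATG7-/- against WT vesicles VTRNA1-1 ranged from 0.23 to 0.36 and VTRNA1-3 from 0.33 to 0.49, and in ATG12-/- against WT vesicles VTRNA1-3 ranged from 0.22 to 0.48. In ATG12-/- against WT cells VTRNA1-1 ranged from -0.75 to -0.36, VTRNA1-2 from -0.86 to -0.61 and VTRNA1-3 from -0.79 to -0.42, and between the clones VTRNA1-3 ranged from -0.88 to -0.56. In vesicles against cells VTRNA1-1 (0.26 to 0.56) and VTRNA1-2 (-0.70 to -0.32) of ATG7-/- and VTRNA1-3 (-0.73 to -0.39) of ATG12-/- cultures moved, as did the vesicle minus cell differences of VTRNA1-2 in ATG7-/- (-0.64 to -0.27) and VTRNA1-3 in ATG12-/- cultures (0.74 to 1.12). Each vault RNA had 72 to 314 reads per vesicle library and 189 to 1012 per cell library. Counting error was not separated from replicate error in these ranges.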
